A study of Mus musculus with 2 samples.

Results

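Gamma delta T cells were followed in single-cell RNA profiles of pancreatic islets from NOD/ShiLtJ mice, which become diabetic by autoimmunity. They were chosen by their transcripts, with a gate applied to 15142 cells that passed the quality filters, and 99 cells met it. A member had at least 1 UMI (a molecule counted by its unique molecular identifier) of Cd3d, Cd3e and Cd3g together, the CD3 chains of every T cell receptor. It also had at least 2 UMIs of Trdc, the constant region of the receptor delta chain, and Cd163l1 together. It had no UMI of Ncr1 or Klrb1c (natural killer cells), Cd8a or Cd8b1 (CD8 T cells), Foxp3 (regulatory T cells), or Cd79a or Ms4a1 (B cells). At most 1 UMI of the cycling genes Mki67, Top2a, Birc5 and Ube2c was allowed, and the hormones Ins1, Ins2, Gcg, Sst and Ppy had to stay under 10% of the cell's UMIs. The levels of these genes are therefore set by the choice of cells and are given as a description only.

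The mice were wild type, 15 weeks old, and ate a diet with 16% HC and 4% gluten or one with 20% HC. The labels do not expand HC. Handpicked islets were dissociated, and cells of 3 mice per diet were pooled into 1 library (10x Genomics, single cell 3′ v3), so each diet has 1 library with no replicate. Barcodes numbered 8200 with gluten and 7758 with HC alone, from 88268070 and 116900677 UMIs in total. The gate found 46 cells with gluten and 53 with HC alone. Where paired values follow, the library with gluten comes first. The barcode sequences shared by both libraries numbered 15, and none of them belonged to a member.

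Gamma delta T cells carry a T cell receptor built from a gamma and a delta chain in place of the alpha and beta chains of conventional T cells. In the mouse they fall into subsets that are set in part in the thymus. One makes interleukin 17 and often expresses the scavenger receptor Cd163l1. Another resembles cytotoxic T cells and natural killer cells and can make interferon gamma. They are few in lymphoid organs and more frequent in barrier tissues, and they have been found in the islet infiltrate of NOD mice.

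The genes that carry the label lie close to the alpha chain locus or apart from it. On mm10, Trdc lies at chr14:54142851-54148868 (plus strand), the delta variable segment Trdv4 at chr14:54074905-54075515 (plus strand), and the alpha constant region Trac at chr14:54220521-54224206 (plus strand). The gamma constant genes Tcrg-C1, Tcrg-C2 and Tcrg-C4 lie on chromosome 13. Cd163l1 lies at chr7:140218267-140231145 (plus strand), and Blk, a Src family kinase of B cells and of interleukin 17 type gamma delta cells, at chr14:63372836-63417037 (minus strand). These are whole gene intervals, since the assay counts transcripts per gene and gives no position within one.

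Trdc was found in all 99 members with at least 2 UMIs, so Cd163l1 was needed by none of them. A member held 2 to 20 Trdc UMIs with gluten (median 5) and 2 to 16 with HC alone (median 6). Cd163l1 was present in 8 of 46 and 5 of 53 members. The other markers given for the label were sparse. Blk was found in 7 and 4 members, and Il17a, the gene of interleukin 17A, in 1 and 2 members at 1 UMI each.

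The gate was read against cells of other classes. At least 2 UMIs of Trdc and Cd163l1 were present in 0 of 1076 and 0 of 1180 B cells, which allows shares of up to 0.279% and 0.254% (3 cells of the total, the limit used here for every count of 0), and 1 UMI in 1 B cell of each library. The median depth of those B cells was 2132 and 2705.5 UMIs, close to the 2128 and 2774 UMIs of members. The 2 UMIs were also met by 3 of 243 and 5 of 435 CD8 T cells and by 1 of 1505 and 3 of 1821 beta cells, which are far deeper. Among natural killer cells 0 of 9 and 2 of 5 met it, and 3 of 9 and 3 of 5 held at least 1 UMI. Whether the natural killer and CD8 T cells express Trdc themselves was not tested, so their counts are not a rate of false members.

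Just outside the threshold lay 16 and 23 cells that passed the rest of the gate with 1 UMI of Trdc and Cd163l1. Trac was found in 7 of those 16 (43.8%) and 15 of those 23 (65.2%). Just inside were 7 and 8 cells with exactly 2 UMIs, and 3 of each carried Trac. CD3 cells with at least 2 UMIs numbered 96 and 83 before the other conditions. The conditions on B cell genes removed or would have removed 19 and 6 of these, those on natural killer genes 22 and 17, on CD8 genes 15 and 11, on cycling genes 10 and 4, and on Foxp3 8 and 0, with some cells failing more than 1.

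Members made up 2.73% [2.00, 3.62] of the 1688 CD3 cells with gluten and 2.05% [1.54, 2.68] of the 2583 CD3 cells with HC alone. Brackets hold 95% intervals throughout. They cover counting error only, by the Clopper-Pearson method for shares and Newcombe's method for differences of shares. The difference was 0.67 percentage points [-0.25, 1.68], so a difference was not detectable at this number of cells. Of all cells low in hormone transcripts, members were 1.14% in both libraries. With 1 library per diet, a difference between diets cannot be told apart from a difference between libraries, in how islets were picked and cells recovered, and no test of diet was possible.

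Receptor transcripts set the members apart from other T cells of the same libraries. The comparison group, called other T cells below, passed the same gate except that it had no UMI of Trdc or Cd163l1, and held 771 and 1411 cells with median depths of 2098 and 2582 UMIs. UMIs were summed over the cells of each class in each library and expressed as CPM (the sum of each gene divided by the sum over all genes and scaled to the same total). The 4 sums were compared with edgeR's quasi-likelihood test, with the library as a block and Benjamini-Hochberg adjustment over 12427 genes. Genes of the gate were left out. Higher in the members at an adjusted p under 0.05 were 71 genes (0.571% of those tested), and lower were 216 (1.74%).

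These calls rest on 2 libraries and 1 residual degree of freedom, and on edgeR's estimate that all genes share 1 spread. With edgeR's newer estimate of the spread, 0 genes were called in either direction, 788 genes were under an unadjusted p of 0.05, and the lowest adjusted p was 0.63. DESeq2 called 20 genes higher and 26 lower, all of them among the 71 and the 216. The direction was the same in both libraries for 65 of the 71 and 210 of the 216, against 2242 of all 12427 genes higher in both libraries (18%) and 5185 lower in both (41.7%). The median log2 fold change over all genes tested was -0.31, so a value near that is not a difference of its own.

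Of the fixed list of gamma and delta receptor genes, 18 of 29 names were in the files, 5 were tested besides Trdc, and 4 were higher. Tcrg-C1 had 12 and 18 UMIs in members against 5 and 3 in all other T cells, or 100.5 and 119 CPM against 2.25 and 0.634. Its levels in members lay far above those of other T cells in both libraries, 44.7-fold [14.6, 162] and 187-fold [54.6, 991], with an adjusted p of 1.6e-17 in edgeR's quasi-likelihood test and a log2 fold change of 6.34 ± 0.69 (standard error). Tcrg-C2 had 126 and 270.1 CPM against 9.0 and 13.7, a log2 fold change of 4.01 ± 0.36 (edgeR adjusted p 1.8e-25). Tcrg-C4 had 100.5 and 204 CPM against 9.0 and 6.56, a log2 fold change of 4.28 ± 0.42 (edgeR adjusted p 5.8e-22).

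Trdv4, the delta segment usual for interleukin 17 type cells with the Vγ6 chain, had 5 and 4 UMIs in members against 0 and 2 in other T cells (log2 fold change 6.42, edgeR adjusted p 0.019). Those UMIs came from 5 and 2 members. The gamma constant genes are near copies of each other in part. Of the 60-base windows of the Tcrg-C1 transcript, 11.9% occur in Tcrg-C2 and 12.9% in Tcrg-C3, whereas none occurs in Tcrg-C4. How reads are shared among the first 3 is therefore uncertain, and any of the 4 counted together is the safer reading.

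A UMI of any gamma constant gene was found in 23 of 46 members (50% [34.9, 65.1]) and 36 of 53 (67.9% [53.7, 80.1]). In other T cells it was 4.02% and 2.76%, and in B cells 1 of 1076 and 0 of 1180. CD8 T cells lay in between, with 24.6% and 22%. In CD8 T cells Tcrg-C2 was found in 18.2% and 15.9%, Tcrg-C4 in 9.75% and 14.3%, Tcrg-C3 in 2 of 236 and 5 of 428 cells, and Tcrg-C1 in 0% and 0.467%.

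The alpha chain gene was low in members. Trac had 15 and 22 UMIs, or 126 and 145 CPM, against 499 and 633 CPM in other T cells, a log2 fold change of -2.18 ± 0.22 (edgeR's quasi-likelihood test, adjusted p 1.3e-19). It was found in 7 of 46 (15.2%) and 11 of 53 (20.8%) members against 65.2% and 79.7% of other T cells. The beta chain gene Trbc2 was lower by a smaller amount, with 1105 and 1699.7 CPM against 1731 and 2044 and a log2 fold change of -0.57 (adjusted p 4.8e-04). Trbc1, the other beta constant gene, gave a log2 fold change of 0.03 (adjusted p 0.99).

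Beta chain transcripts were found in 92 of the 99 members, 44 of 46 and 48 of 53. Transcripts of the beta locus are known in gamma delta T cells, whose precursors can rearrange it. Taken over both libraries, 53 members had a gamma constant gene and no Trac, 28 had neither, 12 had Trac and no gamma constant gene, and 6 had both. Receptor transcripts gave those 12 the least support for the label. A gate that also barred Trac, Trbc1 and Trbc2 would have kept 2 and 5 cells.

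**Figure D1:**
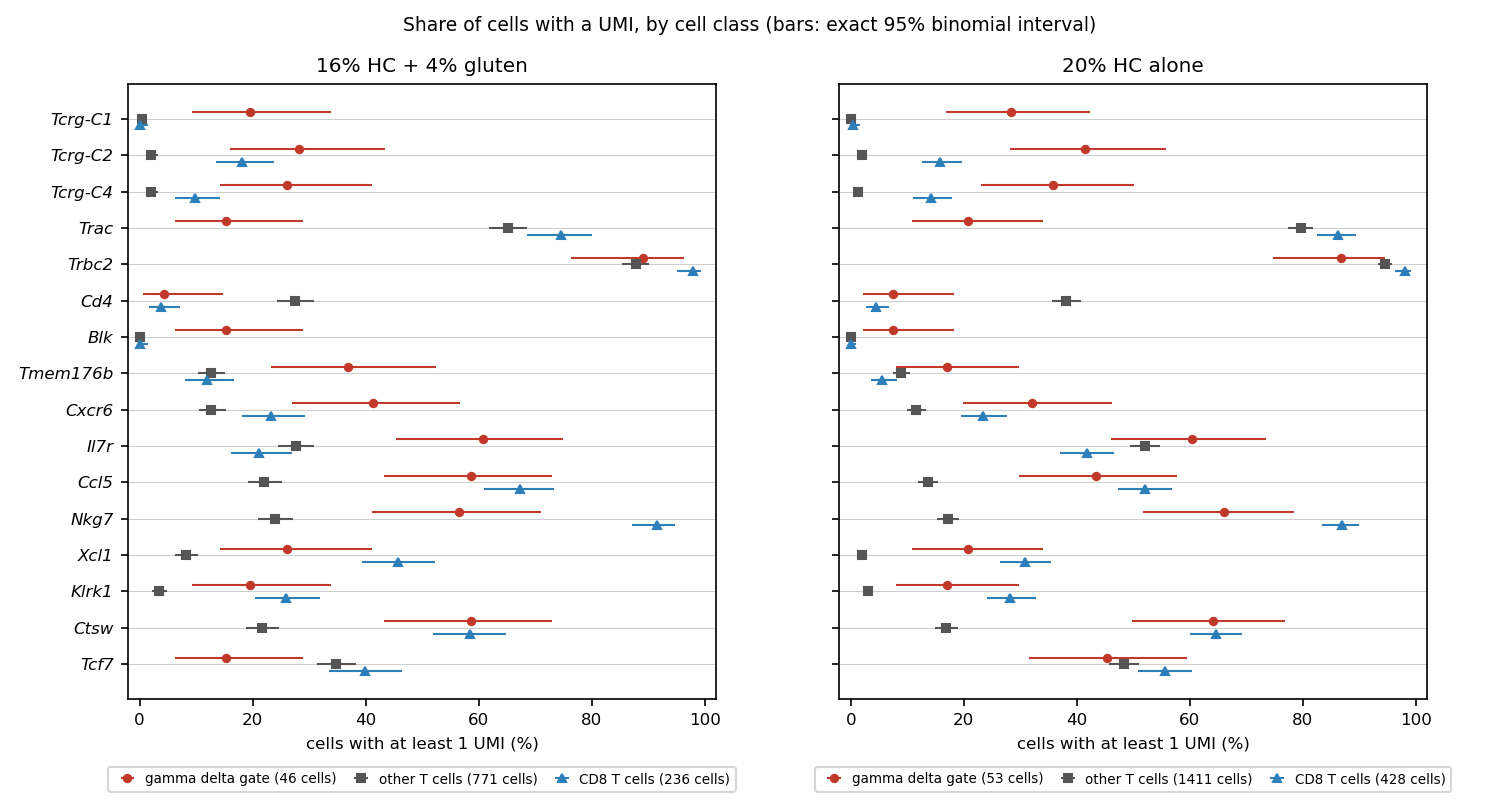
Share of cells with at least 1 UMI of each gene, in percent, for members of the gamma delta gate (red circles), other T cells (grey squares) and CD8 T cells (blue triangles), 1 panel per library, with exact 95% binomial intervals. Tcrg-C1 and Blk stand near 0% in both comparison classes, Trac stands at 15.2% and 20.8% of members, and for Nkg7, Xcl1 and Klrk1 the members lie between other T cells and CD8 T cells.

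Trac and Trbc2 belong to a list of 7 alpha beta receptor, coreceptor and costimulation genes, of which 4 were lower and none higher, with a median log2 fold change of -0.83. The other two were Cd4 and Cd28. Cd4, the coreceptor of helper T cells, stood at 67.0 and 46.1 CPM in members against 132 and 179 (log2 fold change -1.60, edgeR adjusted p 8.5e-05), and was found in 2 and 4 members. That was a smaller share than the 27.5% and 38.1% of other T cells with Cd4. Cd28, the costimulatory receptor, had a log2 fold change of -0.83 (edgeR adjusted p 0.0089). Of 12 genes of receptor signalling only Blk was called, and the list's median was -0.01.

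Of 16 checkpoint genes 6 were lower and 1 higher, with a median log2 fold change of -2.06. Ctla4, an inhibitory receptor that competes with Cd28, stood at 67.0 and 39.5 CPM against 363 and 125 (log2 fold change -2.23, edgeR adjusted p 1.2e-10). Lag3, another inhibitory receptor, had a log2 fold change of -2.70 (4.6e-08 by the same test), the costimulatory receptor Tnfrsf4 (OX40) -2.94 (5.0e-14), and Cd200, a surface glycoprotein, -3.19 (3.0e-06). Tnfrsf18 and Tox2 were the others. The gene that was higher was Cd160, a receptor of cytotoxic cells, at 50.2 and 65.9 CPM against 22.1 and 6.98 (log2 fold change 2.10, adjusted p 0.015).

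Of 7 regulatory T cell markers 3 were lower, Ctla4, Tnfrsf4 and the folate receptor family gene Izumo1r, and none was higher. Of 16 effector cytokine genes 2 were lower. Tnfsf8, the CD30 ligand, had 0 UMIs with gluten and 7 UMIs (46.1 CPM) with HC alone in members. In other T cells it stood at 167 and 124 CPM (log2 fold change -2.59, edgeR adjusted p 2.3e-08). Tnfsf11, the RANK ligand, had a log2 fold change of -2.26 (adjusted p 0.049). Il17a was not among the calls, at 1 and 2 UMIs, and Ifng, the gene of interferon gamma, gave -0.09.

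Genes of the interleukin 17 type programme were higher in members. Of 29 genes of that list tested, 12 were higher and none lower, with a median log2 fold change of 1.29. The list was drawn up with earlier results of these data known. Blk had 12 and 5 UMIs in members against 0 and 2 in all other T cells, so it was at least 74.4-fold higher with gluten, against a floor of 3 UMIs, and 77.9-fold [12.7, 818] with HC alone (log2 fold change 7.20 ± 1.24, edgeR adjusted p 9.3e-07). In B cells, where Blk is a known kinase, it was found in 17.2% and 21.6%, and the part of B cell RNA in the Blk counts of members was not tested.

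The other called members of this list had lower folds. Serpinb1a, a protease inhibitor that marks interleukin 17 producing cells, stood at 109 and 79.1 CPM against 12.6 and 12.1 (log2 fold change 2.78, edgeR adjusted p 1.8e-06). Ltb4r1, the leukotriene B4 receptor, stood at 75.4 and 52.7 CPM against 7.20 and 7.19 (2.99, adjusted p 2.5e-04), and Actn2, an actin crosslinker, at 41.9 and 79.1 CPM against 6.75 and 2.75 (3.75, adjusted p 2.2e-05). Both libraries gave the same direction for each of these. Ly6g5b (5.49, adjusted p 0.011), the potassium channel Kcnk1 (3.09, adjusted p 0.011) and the water and glycerol channel Aqp3 (3.26, adjusted p 0.042) were also called by edgeR, from 10, 12 and 10 UMIs in all members.

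Receptors for homing and survival signals belonged to the same list. Cxcr6, the receptor of the chemokine Cxcl16 and usual for tissue T cells, stood at 318 and 303 CPM against 96.8 and 88.2 (log2 fold change 1.64, edgeR adjusted p 1.3e-10). It was found in 41.3% and 32.1% of members and in 12.7% and 11.6% of other T cells. Il7r, the interleukin 7 receptor, stood at 486 and 718 CPM against 160 and 412 (1.07, adjusted p 4.3e-06), Rora, a nuclear receptor transcription factor, at 218 and 198 against 129 and 45.0 (1.32, adjusted p 2.3e-05), and Il18r1, the interleukin 18 receptor, at 151 and 132 against 49.5 and 56.0 (1.29, adjusted p 0.0031). Il18r1 lost its call, with an adjusted p of 0.056, when cells with RNA of antigen-presenting cells were left out, as did Aqp3 at 0.060.

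Tmem176a and Tmem176b, membrane proteins that are high in dendritic cells and macrophages and in several kinds of interleukin 17 producing cells, changed with those cells. As summed, they gave log2 fold changes of -0.15 and -0.28 with no call. Yet 34.8% and 18.9% of members held a Tmem176a UMI against 12.1% and 7.73% of other T cells. Without cells that held 10 or more UMIs of Cd74, H2-Aa, H2-Ab1, H2-Eb1, Lyz2, C1qa, C1qb, C1qc and Apoe, a choice made after seeing the data, the values were 3.03 and 2.68 (edgeR adjusted p 4.1e-21 and 1.1e-22). That step left 44 and 53 members and 700 and 1315 other T cells.

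**Figure D2:**
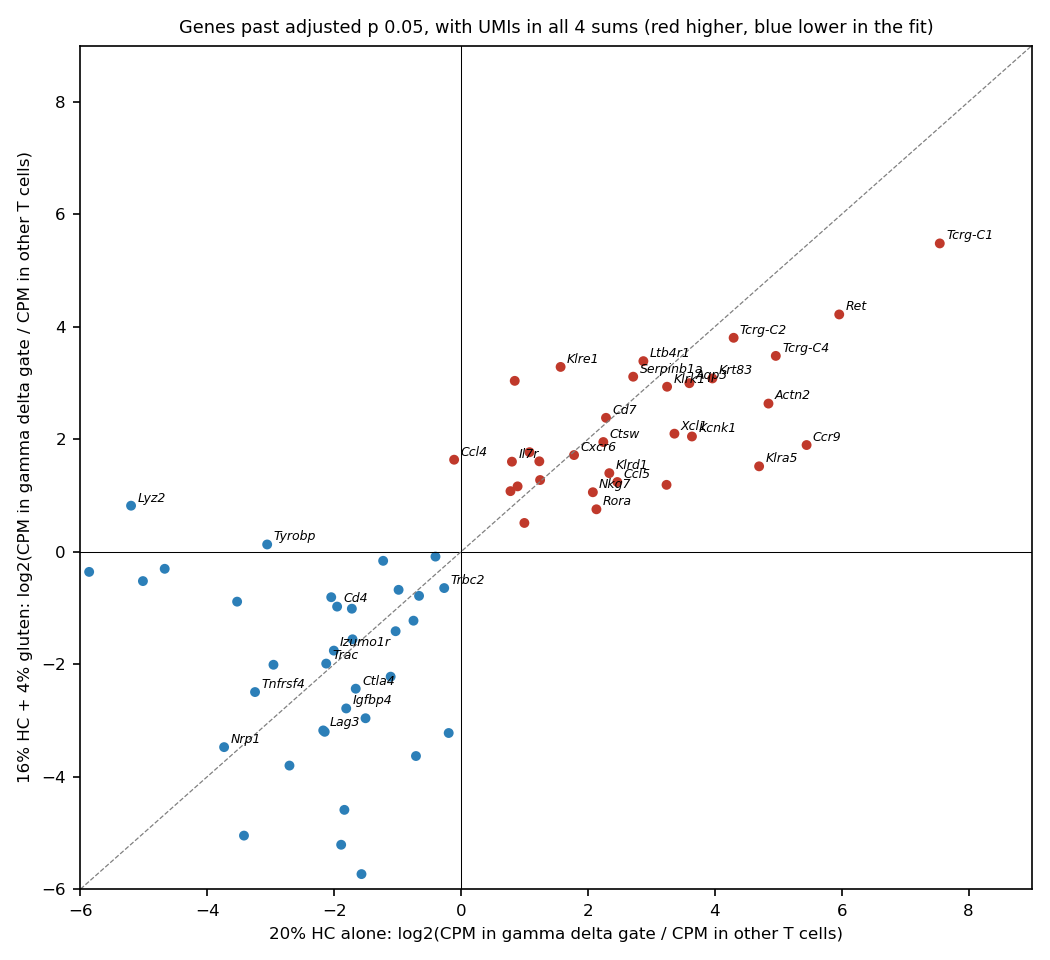
Log2 ratio of the CPM in members over the CPM in other T cells, for the library with HC alone (horizontal) and with gluten (vertical), for genes past an adjusted p of 0.05 with UMIs in all 4 sums; red genes were higher and blue ones lower, and the dashed line marks equal ratios. The receptor genes Tcrg-C1, Tcrg-C2 and Tcrg-C4 sit far up in both libraries, while Lyz2 and Tyrobp lie above 0 with gluten and below it with HC alone.

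Cytotoxic and natural killer receptor genes formed the other large group. Of 27 genes of the type 1 and cytotoxic list, 11 were higher and none lower, with a median log2 fold change of 1.18. Ccl5, a chemokine of effector T cells, stood at 3859.8 and 3919.9 CPM in members against 1636 and 711 in other T cells (log2 fold change 1.74 ± 0.11, edgeR adjusted p 1.1e-50). It was found in 58.7% and 43.4% of members, 22% and 13.6% of other T cells, and 4.83% and 3.39% of B cells. Xcl1, a chemokine that attracts cross-presenting dendritic cells, stood at 410.3 and 244 CPM against 95.9 and 23.7 (2.56 ± 0.24, adjusted p 8.2e-24).

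Genes of granules and receptors were higher too. Nkg7, a granule membrane protein, stood at 770.3 and 1001 CPM against 370.4 and 237 (log2 fold change 1.47, edgeR adjusted p 2.7e-13), and Ctsw, a lysosomal protease of cytotoxic cells, at 460.5 and 428 against 119 and 90.5 (1.99, adjusted p 6.3e-19). Klrk1, the activating receptor NKG2D, stood at 134 and 165 CPM against 17.6 and 17.3 (3.00, adjusted p 3.3e-13). Klrd1, which pairs with the NKG2 chains, had a log2 fold change of 1.81 (adjusted p 1.4e-05), and Cd7, an immunoglobulin family receptor, 2.22 (adjusted p 1.2e-14). Il2rb, a receptor chain for interleukins 2 and 15, had 0.92 (adjusted p 0.011), and the chemokine gene Ccl4 had 0.82 (adjusted p 0.0065). Ccl4 was higher only in the library with gluten, with log2 ratios of 1.63 and -0.11, so its call rests on that library.

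Receptors of the Ly49 family, which bind class I molecules, were unevenly spread. Klra5 had 2 UMIs with gluten and 20 with HC alone (log2 fold change 3.77, edgeR adjusted p 1.5e-07), and Klra1 had 15 and 3 (2.17, adjusted p 0.0058). The order of the libraries was opposite for these near copies, and their reads may be split between paralogs. Klre1 had 11 and 2 UMIs (2.65, adjusted p 0.017). Eomes, a transcription factor of natural killer and memory cells, had 0 UMIs with gluten and 14 with HC alone (2.21, adjusted p 0.029), so its call rests on the library with HC alone.

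Several genes known for these cells were not called by edgeR. Gzma, a granzyme, had 0 and 1 UMIs, and Tbx21, the transcription factor T-bet, was found in 5 and 0 members. Il17f, which encodes interleukin 17F, was found in no member, which allows shares of up to 6.52% and 5.66% of members with a UMI by the same limit of 3 cells. At this depth a gene with few transcripts per cell can be missed in most cells that express it.

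The choice of comparison class decided several of the cytotoxic genes. Set against CD8 T cells in place of other T cells, Ccl5 gave a log2 fold change of -0.84 (edgeR adjusted p 7.0e-30), Nkg7 -1.09 (3.4e-13), Xcl1 -1.29 (9.3e-09), Klrd1 -1.05 (0.0032) and Klre1 -1.77 (9.7e-05), all lower in members. Klrk1 and Eomes were -0.25 and -0.90 with no call. Klra5 went the other way, at 5.92 (edgeR adjusted p 1.5e-10) against 3.77 over other T cells. Of the receptor genes Tcrg-C1 gave 6.41, while Tcrg-C2 gave 1.09 (edgeR adjusted p 0.0038) and Tcrg-C4 1.57 (9.6e-05), well below their 4.01 and 4.28 against other T cells. Blk gave 8.27, Il7r 1.96, Rora 1.74, Cxcr6 0.90 and Trac -2.07, all still called, while Aqp3 gave 2.32 with no call (adjusted p 0.14).

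Of the 15 genes with the highest fold, 3 belong to no group above. Ret, the receptor tyrosine kinase for ligands of the GDNF family, had 6 and 8 UMIs in members against 6 and 4 in all other T cells (log2 fold change 4.90, edgeR adjusted p 1.8e-04). Krt83, a hair keratin gene, had 20 and 13 against 44 and 26 (3.31, adjusted p 9.0e-12), and was found in 10 and 7 members. Ccr9, a receptor of gut and thymus homing, had 3 and 14 against 15 and 10 (3.91, adjusted p 1.5e-05). Ccr9 was 3.72-fold [0.691, 13.2] higher with gluten, an interval that includes 1, and 43.6-fold [18, 110] with HC alone.

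The lists of naive and resident T cells gave calls in both directions. Over all genes tested, 0.571% were called higher and 1.74% lower. Of 16 naive and recirculation genes 3 were higher, Ccr9 and Txk among them, and 1 lower, Igfbp4, with a median of 0.05. Of 19 residency and activation genes 3 were higher (Cxcr6, Ccr9 and Ly6a) and 1 lower (Bhlhe40), with a median of 0.08. Of 20 cytokine receptors 4 were higher (Il7r, Il18r1, Il2rb and Ifngr1). Ribosomal protein genes had 0 calls among 20, in edgeR and in DESeq2, 4 under an unadjusted p of 0.05, and a median of 0.00. Without cells carrying antigen-presenting RNA, edgeR called 5 of the 20 lower and none higher, with a median of -0.16.

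Lists for other cell types the gate could hold gave mixed counts. Of 11 natural killer and ILC1 genes, Eomes, Klre1 and Klra1 were higher and Tyrobp, a signalling adaptor also of myeloid cells, was lower. Of 7 ILC2 genes only Rora was higher, and of 8 ILC3 genes Cd4, Tnfsf11 and Nrp1 were lower. Of 6 B cell genes only Igkc, the kappa light chain, was called, and it was lower. Ncr1, Klrb1c, Cd79a, Ms4a1 and Foxp3 were at 0 UMIs in members by the gate.

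State lists gave lower calls only, where 1.74% of all genes tested were called lower. Of 24 immediate early and heat shock genes 5 were lower (Fos, Fosb, Egr1, Atf3 and Hspa1a) and none higher, with a median of -0.09. Of 21 interferon response genes Ifi27l2a was lower, of 15 MHC class I genes H2-K1 was lower, and of 2 hormones outside the gate Pyy was lower. Fos, Atf3, Hspa1a and H2-K1 were not called without cells carrying antigen-presenting RNA, with edgeR adjusted p of 0.24, 0.67, 0.48 and 0.35.

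The lowest genes are not known as T cell genes. Dcn, Cpxm1, Col3a1, Col1a2, Plpp3, C4b, Krt18, Cygb, Rarres2 and Tagln, most of them genes of fibroblasts and mural or duct cells, had 0 UMIs in the members of both libraries. Against a floor of 3 UMIs over both libraries they were at least 31.3-fold (Dcn) to 6.54-fold (Tagln) lower. Their UMIs in other T cells came from 30 to 95 cells, and 61.0% to 98.4% of them from 20 cells. DESeq2 gave each of the 10 an adjusted p of 1. Of the 216 lower genes, 61 had no UMI in members.

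RNA of antigen-presenting and acinar cells moved with the lower calls. Of 19 antigen-presenting genes 8 were lower, from summed levels of 14594 and 580 CPM in members against 15021 and 12535 CPM in other T cells. With cells carrying such RNA left out, none of the 12 still tested was lower and 1 was higher. The cells left out were picked by genes of this same list, so the loss of its lower calls is no separate result. Of 21 acinar genes 18 were lower (median -3.92), with sums of 687 and 145 CPM against 10492 and 1122. The part of these transcripts in the counts of lower genes was not tested beyond that step, after which 77 genes were higher (0.721% of 10676) and 129 lower (1.21%), and 57 and 86 of them were among the first 71 and 216.

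The members were not alike among themselves. Cd163l1 and Ccl5 were never found in the same member, and the 99 cells were described in 3 sets, a division made after their values were seen and given with no test. Cd163l1 was found in 13 cells, Ccl5 in 50 and neither in 36. Median depths were 2185 and 2865 UMIs in the first set, 2181 and 2847 in the second and 1792 and 2592 in the third. In 7 of the 50 cells Ccl5 rested on 1 UMI.

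Several interleukin 17 type genes were found mainly in the 13 cells with Cd163l1. Trdv4 was found in 7 of the 13 and in none of the 86 members without Cd163l1, Blk in 10 of 13 against 1 of 50 and 0 of 36, and all 3 members with Il17a and all 3 with the interleukin 23 receptor gene Il23r were among them. Serpinb1a was found in 11 of 13 cells against 2 of 50 and 1 of 36, Ltb4r1 in 8 against 1 and 1, and Tmem176b in 12 against 9 and 5. Kcnk1 was found in 6 against 0 and 1, and Actn2 in 6 against 0 and 3. Tmem176a resembled Tmem176b, in 12 of 13 cells against 8 of 50 and 6 of 36. Maf, a transcription factor, was less confined to that set, in 4 of 13, 7 of 50 and 6 of 36 cells. So were Rora, in 9, 11 and 5 cells, and Il18r1, in 9, 13 and 5. Maf, Rora and Il18r1 still had their highest share of cells and highest CPM in cells with Cd163l1. In the 13 cells the median Trdc count was 8 UMIs in both libraries, against 5 and 5 in cells with Ccl5 and 4 and 6 in cells with neither.

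The sequences before the start sites of Cd163l1, Actn2 and Il17a are printed because all 3 genes were detected in that set. Letters come from the RefSeq promoter table on GRCm38.p6, upstream of the transcript start, 5′ to 3′ on the gene's strand. Capitals mark AGGTCA, a half-site that several nuclear receptors can bind, on either strand, so that it reads TGACCT on the other strand. Cd163l1 (chr7:140218017-140218266, plus strand) holds no match, and Actn2 (chr13:12340761-12340982, minus strand) and Il17a (chr1:20730655-20730904, plus strand) hold 1 each.
Cd163l1: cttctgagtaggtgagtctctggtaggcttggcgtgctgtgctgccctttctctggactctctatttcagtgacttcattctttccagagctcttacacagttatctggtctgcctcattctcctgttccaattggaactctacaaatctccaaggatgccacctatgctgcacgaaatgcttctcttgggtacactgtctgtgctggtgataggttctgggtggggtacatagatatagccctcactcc
Actn2: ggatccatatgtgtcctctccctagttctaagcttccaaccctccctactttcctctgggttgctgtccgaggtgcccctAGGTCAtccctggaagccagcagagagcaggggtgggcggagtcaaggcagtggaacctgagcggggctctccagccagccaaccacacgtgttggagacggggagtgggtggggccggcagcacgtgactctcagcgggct
Il17a: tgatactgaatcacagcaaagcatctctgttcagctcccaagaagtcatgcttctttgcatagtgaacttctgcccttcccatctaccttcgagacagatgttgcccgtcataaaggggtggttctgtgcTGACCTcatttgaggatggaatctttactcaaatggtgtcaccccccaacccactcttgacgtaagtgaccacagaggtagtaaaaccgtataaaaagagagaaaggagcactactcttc
Of 15 genes looked up 10 had an entry, and Actn2, Il17a and Il23r held the letters in the 250 bases upstream. The same letters occur in 14% of 32851 such windows in the table. A gene can have more than 1 window, so that is a share of windows and not of genes. A match is a description of the letters and not a bound site.

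Among the cytotoxic and natural killer receptor genes, several were found mainly or solely in the 50 cells with Ccl5. Xcl1 was found in 23 of them and in no other member, Klra5 and Klra1 in 9 each and in no other member, and Tbx21 in 5 and in no other member. Nkg7 was found in 42 of 50 cells, 0 of 13 with Cd163l1 and 19 of 36 with neither. Klrd1 was found in 22, 0 and 3 cells in that order, Cd7 in 24, 1 and 1, and Ifng in 13, 1 and 1. Others were not divided in this way. Klrk1 was found in 13, 4 and 1 cells, at 211 CPM in cells with Ccl5 and 226 CPM in cells with Cd163l1, Ctsw in 38, 7 and 16 cells, Il2rb in 28, 5 and 9, and Eomes in 6, 0 and 2. With 13 cells, a count of 0 allows a share of up to 23.1% by the floor of 3 counts.

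Genes of naive and recirculating T cells were found in both sets without Cd163l1. Cd27, a costimulatory receptor kept by interferon gamma type gamma delta cells, was found in 0 of 13 cells with Cd163l1, 23 of 50 with Ccl5 and 18 of 36 with neither. Tcf7, a transcription factor of naive and memory T cells, was found in 0, 16 and 15 cells, and S1pr1, the receptor for exit from tissue, in 0, 16 and 15. Ccr7, the lymph node homing receptor, was found in 7 of 50 and 12 of 36, and Ccr9 in 1 of 13, 2 of 50 and 11 of 36. Txk was found in 7 of 13, 26 of 50 and 17 of 36 cells, and Foxp1 in 6, 22 and 16. Gimap3 was found in 5, 14 and 16 cells, with its highest CPM in cells with Cd163l1 (283, 143 and 236 CPM).

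Other transcripts were found in all 3 sets, several of them at their highest CPM in cells with Cd163l1. Il7r was found in 13 of 13, 28 of 50 and 19 of 36 cells (1330, 450 and 606 CPM). Cxcr6 was found in 10, 19 and 7 (792, 300 and 135 CPM), and Krt83 in 7, 7 and 3 (453, 81.8 and 56.1 CPM). Tcrg-C1 was found in 8, 9 and 7 cells (368, 68.1 and 78.6 CPM). Tcrg-C2 was found in 5, 18 and 12 (170, 184 and 258 CPM), and Tcrg-C4 in 6, 14 and 11 (283, 116 and 180 CPM). Trac was found in 2, 7 and 9 cells. Gamma constant genes were thus present in every set, and the set with neither marker had the highest share with Trac, at 9 of 36.

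**Figure D3:**
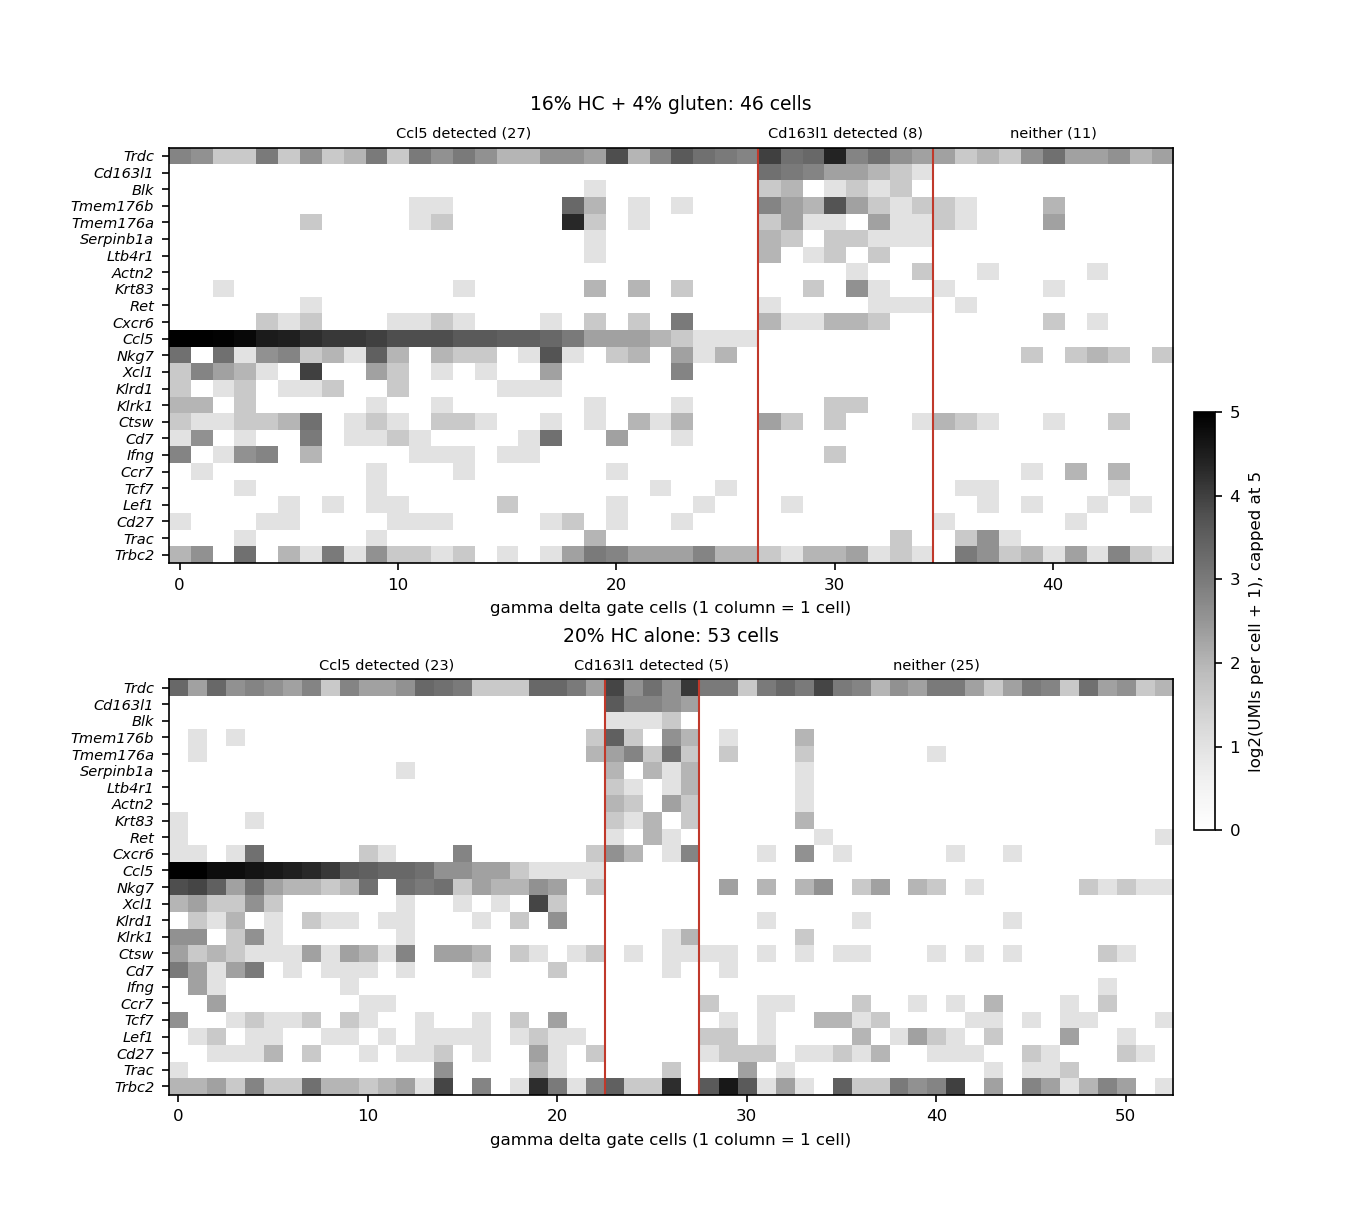
UMIs of each gene in each of the 46 members with gluten (top) and the 53 with HC alone (bottom), 1 column per cell, shaded by log2(UMIs + 1) and capped at 5; red lines divide cells with Ccl5, cells with Cd163l1 and cells with neither. The columns with Cd163l1 hold Blk, Serpinb1a and Ltb4r1 and no Ccl5, Nkg7, Xcl1 or Klrd1, while Trbc2 runs through all 3 sets.

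The make-up of the members was then set side by side for the 2 libraries. Cells with Cd163l1 were 17.4% [7.8, 31.4] of members with gluten and 9.4% [3.1, 20.7] with HC alone, a difference of 7.96 points [-5.68, 22.3]. Cells with Ccl5 were 58.7% and 43.4%, a difference of 15.3 points [-4.30, 33.3]. Cells with neither were 11 of 46 (23.9%) and 25 of 53 (47.2%), a difference of -23.3 points [-39.8, -4.28], whose interval does not include 0. These sets were drawn from the same cells, and 1 library stands behind each value.

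The type 17 score gave the share of cells with at least 2 UMIs over 12 interleukin 17 type genes, among them Blk, Maf, Tmem176a and Tmem176b. It was 17 of 46 members with gluten (37.0% [23.2, 52.5]) and 9 of 53 with HC alone (17% [8.1, 29.8]), a difference of 20.0 points [2.5, 36.4]. In other T cells it was 19.1% and 17.9%. With every cell thinned to 1500 UMIs, which left out 5 and 3 members, it was 39.0% and 12.0% of members and 14% and 11.6% of other T cells. Without cells carrying antigen-presenting RNA the difference in members was 17.1 points [-0.2, 33.8], an interval that includes 0.

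The matching score of 12 type 1 genes, among them Ccl5, Nkg7 and Ifng, was met by 38 of 46 (82.6%) and 37 of 53 (69.8%) members, a difference of 12.8 points [-4.3, 28.5]. In other T cells it was 44.1% and 35.2%. Thinned to 1500 UMIs, it was 70.7% and 66.0% of members against 33.8% and 25.1% of other T cells. Members met neither score in 4 and 13 cells.

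**Figure D4:**
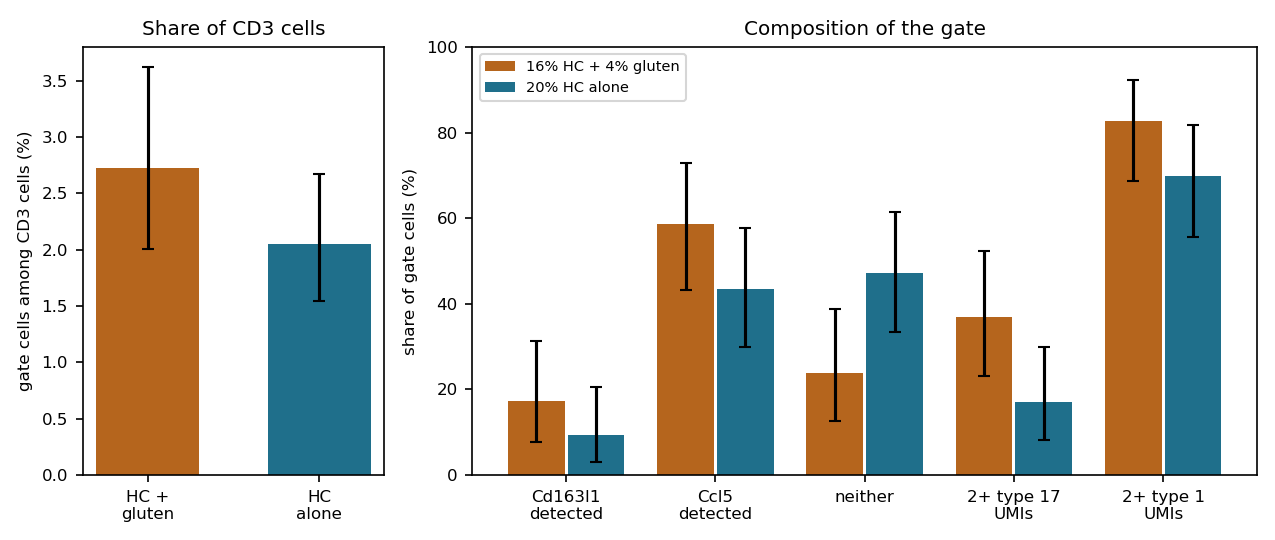
Left, members as a share of CD3 cells (%) in each library; right, shares of members (%) in the sets with Cd163l1, with Ccl5 and with neither, and with at least 2 UMIs of the type 17 and type 1 scores, with exact 95% binomial intervals for counting error. Cells with neither transcript were 23.9% with gluten and 47.2% with HC alone, and the type 17 score was 37.0% and 17%.

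The highest diet ratios came from the RNA of 1 cell. Among 3662 genes with at least 10 UMIs in the members, 357 (9.75%) exceeded a 2-fold ratio towards gluten and 455 (12.4%) towards HC alone. The macrophage genes Ccl8 (519 and 0 UMIs), Cxcl13 (193 and 0), Cd74 (417 and 4), Apoe (217 and 2), C1qa (195 and 4), C1qb (122 and 1), C1qc (66 and 0) and the chemokine gene Cxcl2 (67 and 0) led. A single member with 13953 UMIs held all 519 of Ccl8, 385 of Cd74, 210 of Apoe and 195 of C1qa, beside 5 of Trdc, 4 of CD3 and 7 of Ccl5. A second member with gluten held 28 UMIs of antigen-presenting genes, 25 of them Cd74, and no member with HC alone held 10.

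Without these 2 members and the like cells among other T cells, 285 of 3461 genes (8.23%) passed 2-fold towards gluten and 446 (12.9%) towards HC alone. Chemokine genes were among the highest. Ccl4 had 112 and 18 UMIs, from 7 and 3 members, a log2 ratio of 3.21 [2.48, 4.02] against 1.39 in other T cells, and Ccl3 had 28 and 1 UMIs (5.38 [2.78, 10.7] against 1.13). Cxcl10, a chemokine induced by interferon, had 60 and 10 UMIs from 12 and 4 members (3.16 [2.18, 4.29] against 1.81). Higher with gluten was thus also the direction in other T cells for all 3.

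The rest of the highest genes are known from other cells or from few members. Fabp4 and Plvap, genes of endothelium, had 66 and 1 and 22 and 0 UMIs, from 2 and 1 members with gluten. Ifitm3 had 36 and 1 UMIs and Ifitm2 19 and 0, each from 5 members with gluten. Cxcl1 had 17 and 0 UMIs from 3 members.

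Lower with gluten were genes found in more cells. Smc4, a condensin subunit of mitotic chromosomes, had 6 and 67 UMIs from 5 and 26 members, a log2 ratio of -2.91 [-4.41, -1.71] against -0.48 in other T cells. Tcf7 had 7 and 40 UMIs from 7 and 24 members, -1.94 [-3.35, -0.77] against -0.45. Eomes, with 0 and 14 UMIs, was at least 3.14-fold lower with gluten by the floor of 3 UMIs, while its ratio in other T cells was 0.65. Baz1a, a chromatin remodelling subunit, had 3 and 27 UMIs, and Larp4b, an RNA-binding protein, 1 and 18.

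Mettl9 and Psph had 0 UMIs with gluten and 13 and 12 with HC alone, and Sptan1, a spectrin chain, had 1 and 17. Klra5 was among the lowest only with all members in, at 2 and 20 UMIs. No replicate stands behind these ratios, and they were ranked over all genes measured, so the intervals do not say how far another pool of mice would differ.

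**Figure D5:**
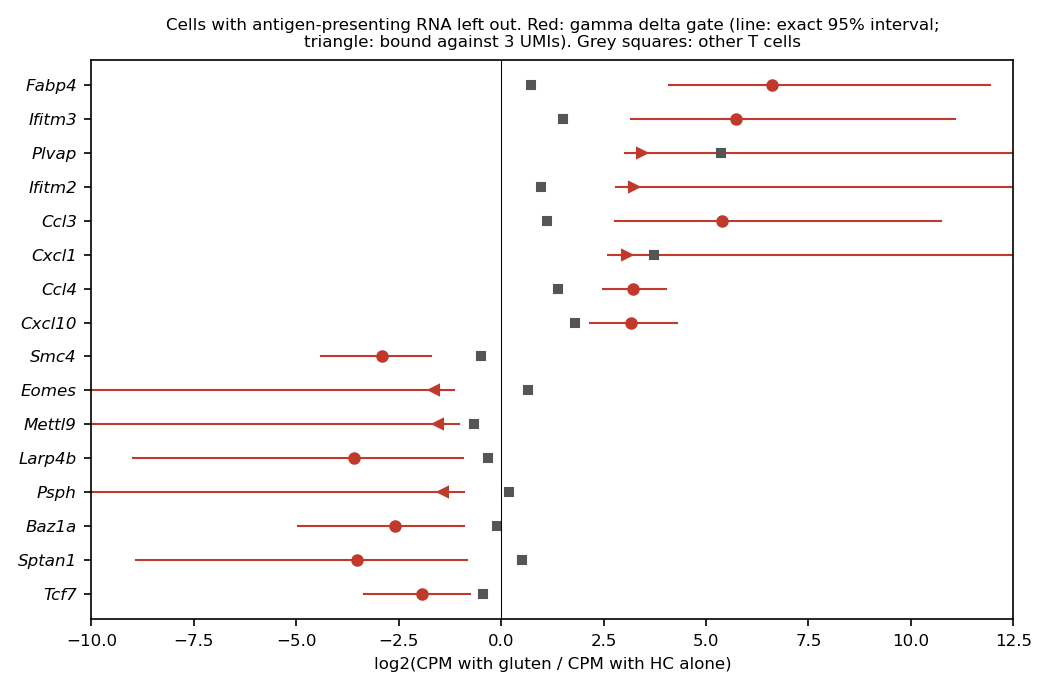
Log2 ratio of the CPM with gluten over the CPM with HC alone for the 8 genes farthest from 0 in each direction, without cells carrying antigen-presenting RNA; red circles are members with exact 95% intervals for counting error, red triangles bounds against 3 UMIs where 1 library had 0, and grey squares other T cells. Ccl4 stands at 3.21 in members and 1.39 in other T cells, and Smc4 at -2.91 and -0.48.

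Lists differed in how far the diet ratios of members lay from those of other T cells. The differences between the classes were not tested. Of 21 immediate early and heat shock genes measured 8 were at least 2-fold higher with gluten, with a median log2 ratio of 0.56 against 0.51 in other T cells. Fos had 90 and 37 UMIs (1.63 [1.06, 2.22] against 0.56) and Tnfaip3, an inhibitor of NF-κB signalling, 59 and 21 (1.84 [1.10, 2.63] against 1.59). Of 15 naive and recirculation genes 5 were at least 2-fold lower and none as much higher, with a median of -0.89 against -0.44. The median over all genes measured was -0.09 in members and -0.06 in other T cells.

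The receptor and programme lists varied around that median. The type 17 list had a median of 0.17 over 22 genes against 0.06 in other T cells, and 0.32 against 0.69 without cells carrying antigen-presenting RNA. Tmem176b had 56 and 28 UMIs, a log2 ratio of 1.35 [0.67, 2.06], and Blk had 12 and 5 UMIs, a log2 ratio of 1.61. The type 1 list had a median of 0.04 over 18 genes against 0.45. Within it Ifng had 28 and 7 UMIs (2.35 [1.12, 3.79] against -0.13), from 11 and 4 members, while Ccl5 had 461 and 595 (-0.02 [-0.20, 0.16] against 1.20).

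Receptor genes were measured for 4 of the gamma and delta list, with a median of -0.63 in members and 0.46 in other T cells. Trdc, set by the gate, gave 0.07 [-0.17, 0.31]. Tcrg-C2 gave -1.10 [-2.06, -0.22] and Tcrg-C4 -1.02 [-2.12, -0.02], lower with gluten, and Tcrg-C1 -0.24 [-1.43, 0.90]. Checkpoint genes, 5 of them measured, gave a median of -0.39 against 0.68, and natural killer and ILC1 genes, 6 measured, 2.74 against 0.32, or 1.22 against 0.65 over 5 genes without cells carrying antigen-presenting RNA. For antigen-presenting genes it was 4.98 against 0.24 over 12 genes, and 1.00 against 0.39 over the 4 still measured without those cells. The cells left out were picked by genes of this same list. Hormone transcripts gave a median of 0.55 in members and 0.65 in other T cells.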

How the data were processed

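The authors deposited 1 table of raw counts per library, in UMIs for each gene and barcode, not normalized. Per the submitters' processing notes, Cell Ranger 4.0.0 and mm10 were used. No source used here gives the annotation release or the rule by which barcodes were called as cells. Of 31053 gene identifiers, 30934 matched a symbol in GENCODE vM21, and 56 shared one. Barcodes under 500 UMIs or 200 genes or over 20% mitochondrial UMIs were dropped, and the gate was applied to them in Python 3.11.15. The tables hold 1 library per diet, so no test of diet was made.

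Summed counts were compared between cell classes with edgeR 4.0.16 in R 4.3.3 (TMM, genes with at least 10 UMIs over the 4 sums, library as a block). Labels name no separate cultures for the sums of a library, so only 2 pools stand behind the p-values. Those of edgeR use a spread shared over genes and do not measure each gene's own spread between the pools. On simulated counts with 12209 genes, the test recovered 31% of genes changed 2-fold and 88% of those changed 4-fold, with 3 false calls. The changed genes were drawn only from those with many UMIs in other T cells, and the simulated spread was below the one estimated. These shares therefore do not cover genes with few UMIs there, such as Blk, Tcrg-C1 and Ret. The number of false calls holds for that smaller spread only. DESeq2 1.42.0, other gates, filters, depth thinning, doublet removal (Scrublet, whose own threshold marked 3 and 2 cells, so the 6% highest scores were taken, with no member among them) and other estimates of the spread were alternatives. Named genes were the 15 highest and 10 lowest by log2 fold change among calls with the same sign in both libraries, the 8 in each direction with the diet interval farthest from 0, and genes of 22 lists. The gate, the lists and the comparisons were chosen with earlier results of these data known. Some genes of these lists are not reported here.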

Additional observations from a re-analysis of the deposited data

Results flagged for a closer look

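For 7 genes called between members and other T cells, the members lay above other T cells with gluten and below them with HC alone, and the difference between the libraries was not tested. The log2 ratio over other T cells differed between libraries by 1.74 for Ccl4, 3.98 for Ctsb, 2.43 for Ctss, 7.20 for Fabp4, 6.02 for Lyz2, 7.55 for Pf4 and 3.18 for Tyrobp. Ccl4 gave 1.63 with gluten and -0.11 with HC alone, and 1.91 with gluten without cells carrying antigen-presenting RNA. Fabp4, from 66 UMIs in members with gluten and 1 with HC alone, gave 4.94 and -2.26. Ctsb, Ctss, Lyz2, Pf4 and Tyrobp are known from macrophages, among other cells. The member with 13953 UMIs held 166 of the 168 Lyz2 UMIs with gluten. Without cells carrying such RNA, the ratio with gluten was -0.61 for Ctsb, -0.34 for Ctss, -0.26 for Tyrobp, 5.64 for Fabp4 and 1.08 for Lyz2.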

How the results depend on the processing

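Each value was recomputed with 1 choice changed. Counts of genes higher and lower in members (71 and 216) moved most. They were 8 and 12 with no replicate block, so the calls rest on the library as a block, 20 and 26 with DESeq2, 29 and 109 with cells thinned to 1 depth, 77 and 129 without antigen-presenting RNA, and 0 and 0 with edgeR's newer estimate of the spread, with and without that RNA (788 and 754 genes under an unadjusted p of 0.05). Without Trac, Trbc1 and Trbc2 in members, which kept 2 and 5 cells, they were 0 and 0. The cause was not tested beyond the fewer cells and UMIs that thinning and this gate leave. The share of CD3 cells became 3.67% and 2.94% with 1 UMI, and 0.118% and 0.194% with no alpha or beta chain RNA, where the difference reversed to -0.0751 points. With 20 UMIs per gene, 138 and 164 genes were 2-fold apart between diets.

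With members cut to the 2 and 5 cells without alpha or beta chain RNA, no gene was called. So few cells can hold 0 UMIs of a gene, which gives a large negative value. In that setting log2 fold changes over other T cells reversed for Ret (-4.44), Klra5 (-6.24), Klrd1 (-0.19), Klre1 (-6.44), Cd7 (-0.60) and Eomes (-7.10). They also reversed for Il2rb (-0.64), Ifngr1 (-0.0108), Ly6a (-0.45), Cd160 (-7.42) and Klra1 (-7.45). Against CD8 T cells they reversed for Klrk1 (-0.25), Ccl5 (-0.84), Nkg7 (-1.09), Xcl1 (-1.29), Klrd1 (-1.05), Klre1 (-1.77), Eomes (-0.90), Cd160 (-0.79), Cd4 (1.52), Tmem176a (0.61) and Tmem176b (0.38). Tmem176a also reversed with 3 UMIs in the gate (0.0321), thinning (0.96) and antigen-presenting RNA left out (3.03, in both estimates of the spread), and over single libraries ran from -0.48 to 0.37. Tmem176b reversed with thinning (1.20) and without that RNA (2.68, in both), and ran from -0.84 to 0.41. Diet ratios reversed for Tcrg-C1 with 3 UMIs in the gate (0.0307), and without cells carrying acinar or antigen-presenting RNA for Ccl5 (0.17 and 0.18) and Trac (0.0034 and 0.0189). Of 995 alternatives for 63 fold changes over other T cells, single libraries aside, 631 kept direction and side of the threshold, 335 lost the call and 29 reversed. Of 203 for 37 diet ratios, which have no test, 191 stayed within their interval, 7 fell outside it or had an open interval, and 5 reversed.

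No paired analysis was possible because each diet has 1 library, so diets cannot be paired. Leaving out a library leaves no residual, so those values have no test. The type 17 score and the difference of its shares kept direction in every alternative run. The 46 and 53 cells limit what could be seen.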
